A study of Solanum lycopersicum with 12 samples.

Results

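Roots of tomato plants whose leaves alone had been sprayed with piperonylic acid (PA) were compared with roots of mock-sprayed plants. The comparison used 6 of the 12 libraries of the study, 3 of PA root and 3 of mock root, and the other 6 libraries were of shoot. It took in each locus whose mean over these 6 libraries was 10 normalized counts or more, which gave 14645 of 34688 loci. PA root came from seedlings of the cultivar Moneymaker sprayed on the leaves with 300 µM PA in 0.1% Tween 20 on days 7 and 14 after transplantation and harvested on day 15. Mock root came from seedlings of the same cultivar and age, given the matching mock spray on the same days. PA shoot and mock shoot had the same treatments. All groups shared a growth chamber at 24 °C with 16 h of light, and each sample was a pool of 4 plants. The sources used here do not say whether any spray reached the soil or the roots directly.

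PA blocks cinnamate 4-hydroxylase, the enzyme that turns cinnamic acid into coumaric acid in the phenylpropanoid pathway. In roots that pathway supplies the phenolic units of lignin in the xylem and the Casparian strip, the phenolic part of suberin, and many soluble flavonoids and defence compounds. A leaf treatment can reach roots through compounds carried in the phloem, through altered sugar supply or through mobile signals, and the response of an organ that was not itself treated is called systemic.

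Transcripts were counted from their 3′ ends, so a locus's normalized count does not grow with transcript length. A normalized count is the number of reads of a locus divided by 1 size factor for its library. The root libraries held 6065291 to 7386030 reads in PA root and 6158777 to 6262275 in mock root, so depth was similar. A locus with no read could still have had up to 3 reads at this depth, which is 2.28 to 2.76 normalized counts in PA root and 2.54 to 2.63 in mock root, counting error only. Root identity was checked with 210 loci that marked shoot and 95 that marked root, each at least 64-fold higher in 1 mock tissue and at 500 normalized counts or more in it. The shoot markers took 0.11 to 0.202% of reads in PA root, against 18.8 to 18.9% in PA shoot, and the root markers took 5.00 to 5.26% in PA root against 0.0154 to 0.0220% in PA shoot. The markers were chosen in mock libraries only, so the PA libraries were not used to pick them, and the files give them no gene names by which a cell type could be named.

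A small share of root loci passed the test for a change with leaf PA. Loci that did not pass are not shown to be unchanged. With PA, 70 root loci rose and 162 fell at an adjusted p below 0.05 from limma, which is 0.478% and 1.11% of the 14645 loci tested and 1.58% together. Of these, 20 rose and 89 fell by at least 2-fold, which is 0.137% and 0.608% of all loci tested, and 4 of those that fell did so by at least 4-fold. The bulk of loci moved little, as 5% of all log2 fold changes lay below -0.50 and 5% lay above 0.43, around a median of 0.03. At an unadjusted p below 0.05 limma marked 12.7% of loci. Roots were measured in bulk, so fewer cells of a type and less RNA per cell cannot be told apart.

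**Figure D1:**
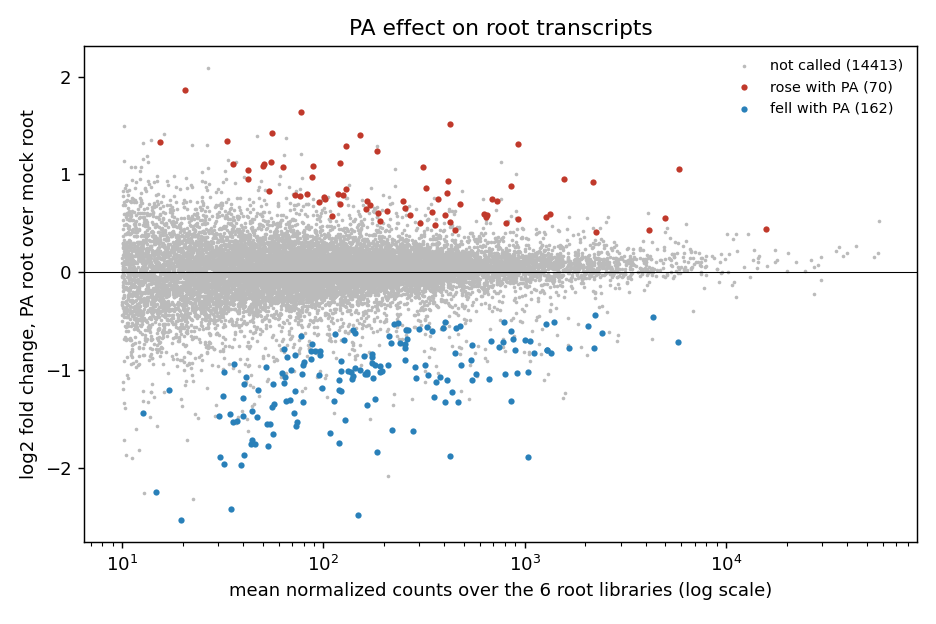
Each point is a locus tested in root, with the mean normalized count over the 6 root libraries on a log scale on the x axis and the log2 fold change of PA root over mock root on the y axis. The 70 loci that rose (red) and the 162 that fell (blue) span the range of levels, and the falls reach -2.53 whereas the rises reach 1.86.

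Locus identifiers are not paired with gene names in the files, and the reference table given for tomato held 0 entries with these identifiers, so no function is given to any locus. Among loci called by limma, the 2 of highest and the 2 of lowest fold change with non-overlapping groups and a mean of at least 20 are named, by identifier and by the chromosome it carries.

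Solyc12g010670.1 on chromosome 12 had the highest fold change among called loci. It had 45.3, 33.2 and 20.6 normalized counts in PA root replicates 1, 2 and 3, against 8.75, 9.30 and 6.10 in mock root replicates 1, 2 and 3. All PA roots lay above all mock roots, and the gap between the lowest PA and the highest mock library was 2.21-fold. The locus rests on few reads, 116 in the 3 PA root libraries and 28 in the 3 mock root libraries. The mean was 33.0 ± 12.4 for PA root and 8.05 ± 1.71 for mock root (SD, n = 3 each), a log2 fold change of 1.86 ± 0.33 (SE, limma adjusted p = 0.0234). No read of it was seen in any of the 6 shoot libraries, so each could have held up to 3. The call was lost when PA root replicate 1 or 2, or mock root replicate 2 or 3, was left out, with limma adjusted p of 0.0845, 0.116, 0.0868 and 0.0980.

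Solyc02g086700.5 on chromosome 2 was next. Its values were 113, 92.1 and 142 normalized counts in PA root, against 35.9, 21.1 and 60.1 in mock root. The groups did not overlap, and mock root replicate 2 was the lowest library of the 6. The log2 fold change was 1.64 ± 0.31 (SE, limma adjusted p = 0.0294). In shoot the same locus had 36.8, 33.5 and 55.3 normalized counts with PA, against 96.2, 63.5 and 62.5 in mock, so the PA shoots lay below the mock shoots. The root call was lost when PA root replicate 1, PA root replicate 2 or mock root replicate 2 was left out, with limma adjusted p of 0.0801, 0.0793 and 0.0868.

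Solyc10g050970.1 on chromosome 10 had the lowest fold change among the named loci. It had 31.6, 23.0 and 101 normalized counts in PA root, against 187, 228 and 323 in mock root. PA root replicate 3 stood between the other PA roots and the mock roots. The mean was 51.7 ± 42.5 for PA root and 246 ± 69.9 for mock root (SD, n = 3 each), a log2 fold change of -2.48 ± 0.42 (SE, limma adjusted p = 0.0206). In shoot it had 107, 160 and 176 normalized counts with PA and 172, 171 and 162 in mock, and those groups overlapped. Leaving out PA root replicate 1, PA root replicate 2, mock root replicate 2 or mock root replicate 3 ended the root call, with limma adjusted p of 0.0649, 0.0793, 0.0906 and 0.104.

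Solyc02g064980.1 on chromosome 2 had 11.1, 4.61 and 16.0 normalized counts in PA root, against 43.7, 42.3 and 90.6 in mock root. The mock values were led by replicate 3, and the groups were still 2.64-fold apart at their nearest. Its log2 fold change was -2.42 ± 0.41 (SE, limma adjusted p = 0.0209). Its shoot level, 10.2 ± 3.85 with PA and 9.71 ± 6.62 in mock (SD, n = 3 each), was close to that of PA root. Its mean over the 6 shoot libraries was below 10 normalized counts, so it was not tested there. Its limma adjusted p was 0.0676 with PA root replicate 2 left out, and 0.0842 and 0.104 when the replicate left out was mock root 2 or 3. All 4 named loci kept their direction whichever root library was left out, which their non-overlapping groups fixed in advance.

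**Figure D2:**
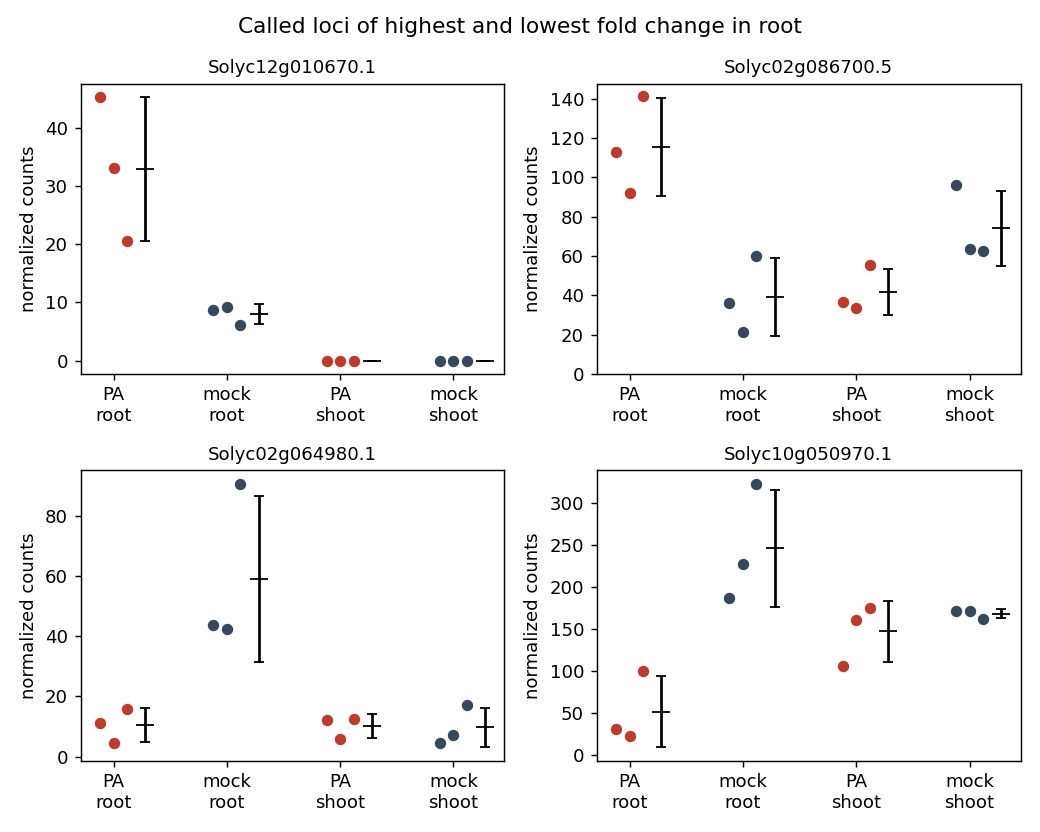
Normalized counts (y axis) of the 4 named loci in each library, with PA libraries in red and mock libraries in dark blue, replicates 1 to 3 from left to right in each group, and the bar giving the mean and SD of 3 libraries. In root the upper pair lay higher and the lower pair lower with PA, with no overlap. In shoot the PA libraries lay below mock for Solyc02g086700.5 and overlapped mock for both loci of the lower pair.

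The loci that rose and those that fell differed in how evenly the 3 PA roots showed the change. For the 162 that fell, the median log2 difference from the mock root mean was -1.14, -1.19 and -0.66 in PA root replicates 1, 2 and 3, and -0.15, 0.01 and 0.14 in mock root replicates 1, 2 and 3. Replicate 3 was the PA root nearest to the mock mean at 144 of these 162 loci, which is 88.9%, whereas it was nearest at 37.2% of all tested loci. A difference of at least 2-fold from the mock mean was seen at 99, 105 and 28 of the 162 in PA root replicates 1, 2 and 3. Among the mock roots, replicate 3 was the highest at 107 of the 162 (66.0%, against 34.9% of all tested loci). Mock root replicate 1 was the lowest at 108 of the 162, against 4917 of all 14645 tested loci. These values come from the libraries that chose the loci and are a description.

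The 70 loci that rose were more even. Their median log2 difference from the mock root mean was 0.73, 0.91 and 0.68 in PA root replicates 1, 2 and 3, and 0.08, -0.03 and -0.07 in mock root replicates 1, 2 and 3. PA root replicate 2 was the farthest from mock at 52 of the 70, against 5713 of all 14645 tested loci. The median SD of log2 values of these loci was 0.17 in PA root and 0.16 in mock root, which matches the 0.17 and 0.16 of all tested loci. For the loci that fell it was 0.31 in PA root and 0.19 in mock root. PA root was the more variable group at 122 of these 162 (75.3%, against 52.7% of all tested loci).

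**Figure D3:**
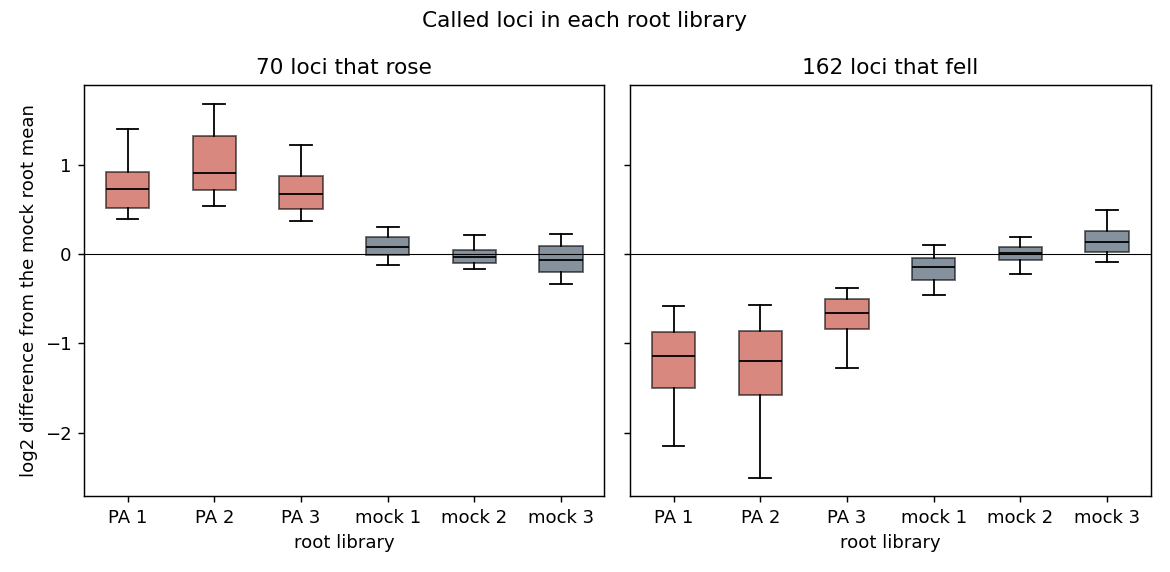
Log2 difference of each called locus from its mock root mean (y axis) in the 6 root libraries (x axis), PA in red and mock in dark blue. Boxes span the middle 50% of loci with the median as a line, and whiskers run from 5% to 95%. Among loci that fell, PA root replicate 3 has a median of -0.66 against -1.14 and -1.19 in the other PA roots, while the medians of the rises are 0.68 to 0.91.

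The number of loci called rested on single libraries. Leaving out PA root replicate 1, 2 or 3 gave 79, 18 or 517 calls, and leaving out mock root replicate 1, 2 or 3 gave 262, 14 or 15, against 232 with all 6. Without PA root replicate 3, 225 of the 232 were called again in the same direction, together with many others. Falls outnumbered rises with all 6 libraries, but 42 rose and 37 fell when PA root replicate 1 was left out, 9 rose and 9 fell when PA root replicate 2 was, and 9 rose and 6 fell when mock root replicate 3 was. Most calls lay near the threshold. The limma adjusted p was 0.02 or more for 52 of the 70 rises and 126 of the 162 falls, and a further 229 loci had an adjusted p from 0.05 to below 0.1.

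A small core of loci was called in each of the 6 fits with 1 library left out. It held 5 that rose and 4 that fell, and this set was picked after its values were seen. The 5 that rose had means of 548 to 7871 normalized counts in PA root and 216 to 3774 in mock root, with log2 fold changes of 0.75 to 1.51 and limma adjusted p of 0.00352 to 0.00398. All 5 had shoot means below 10 normalized counts. The 4 that fell had means of 20.7 to 229 in PA root and 71.1 to 577 in mock root, with log2 fold changes of -1.76 to -0.97. Of these 4, 1 had a shoot mean below 10. With so few loci, picked in this way, nothing is read from their shoot levels.

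**Figure D4:**
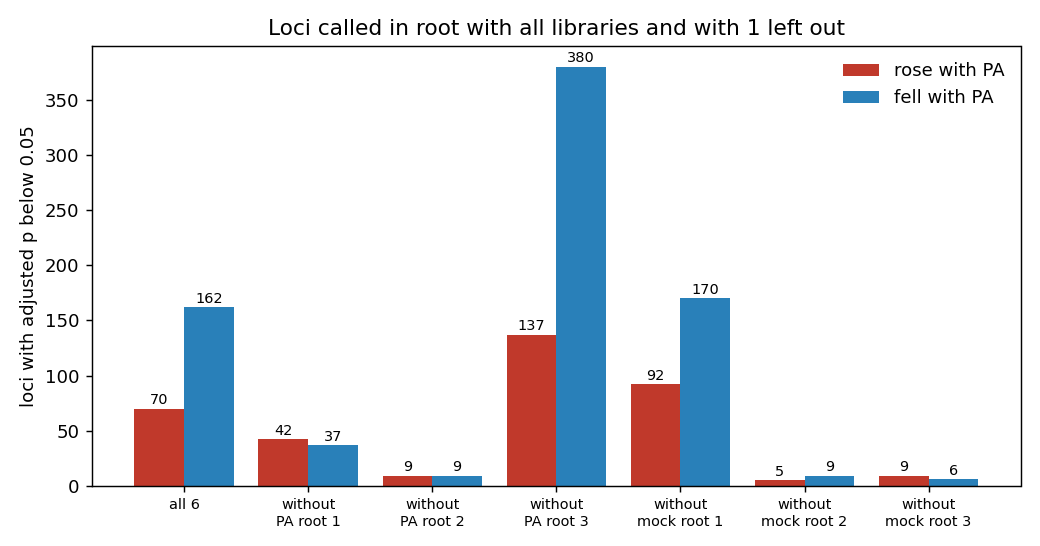
Number of loci with a limma adjusted p below 0.05 (y axis) with all 6 root libraries and with each left out in turn (x axis), for loci that rose (red) and fell (blue) with PA. The numbers fall to 5 rises without mock root replicate 2 and to 6 falls without mock root replicate 3, and reach 137 and 380 without PA root replicate 3.

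The called loci made up a small part of root RNA. Together the 70 that rose took 1.14, 1.33 and 1.18% of reads in PA root replicates 1, 2 and 3, against 0.845, 0.789 and 0.800% in mock root replicates 1, 2 and 3. The 162 that fell took 0.759, 0.743 and 0.996% in PA root, against 1.37, 1.53 and 1.63% in mock root. These libraries chose the loci, so the direction of both differences follows from the selection. Changes were found at all levels, and the share called was 0.205% among the 2927 loci with means of 10 to 30 normalized counts and 2.55% among the 1020 loci of at least 1000. The median standard error was 0.29 on the log2 scale in the lowest class and 0.09 in the highest, and the called changes had a median size of 1.65 and 0.70 on that scale. Among loci not called, 111 had an estimated change of at least 2-fold, 27 higher and 84 lower with PA, with a median mean of 32.4 normalized counts and a median standard error of 0.34. On whole reads, edgeR called 4 of these 111 and DESeq2 called 41.

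No tested locus had reads in every library of 1 group and none in the other. Of the loci that had a read in every mock root library and no read in any PA root library, 47 in number, the most abundant had 10 reads in the 3 mock libraries together. In the other direction there were 31 loci, and the most abundant had 13 reads in the 3 PA libraries. None of them reached the mean of 10 needed to be tested. At the edge of that filter, 224 loci had means of 10 to 11 and 254 had means of 9 to 10, with median levels of 10.5 in PA root and 10.3 in mock root inside it and 9.43 and 9.52 outside it.

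Groups that do not overlap were common, and their split between higher and lower depended on the scaling. With the authors' scaling PA lay above mock in every root library at 1496 loci, which is 10.2% of those tested, and below mock at 1063, which is 7.26%. All 232 called loci were among them, which the test itself favours. The median log2 fold change of all loci was 0.03 with the authors' scaling and -0.003 after scaling whole reads by trimmed means (TMM), where PA lay above mock at 1109 loci and below at 1317. After quantile scaling PA lay above mock at 1249 loci and below at 1103, the same way as with the authors' scaling. Among loci called by limma, falls outnumbered rises under each of these scalings, with 56 higher and 187 lower after TMM scaling.

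Many of the loci that rose were already at a higher level in root than in shoot. In mock libraries 36 of the 70, or 51.4%, were at least 4-fold higher in root than in shoot, against 11.9% of all tested loci. Their median log2 ratio of mock root over mock shoot was 2.37, against 0.15 for all tested loci. Mock root is 1 side of the PA comparison, which tends to lower this ratio for loci that rose. In the shoot libraries, which the root test did not use, 22 of the 70 had a mean below 10 normalized counts (31.4%, against 11.2% of all tested loci), and 4 had no read at all. Of the 95 root markers, 6 rose (6.32%) and 0 fell, where 0.478% of all tested loci rose and 1.11% fell. Among all loci with means of at least 1000 normalized counts 0.882% rose, and among those of 300 to 1000 it was 0.950%.

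Strong tissue preference was about as common among the loci that fell as among all loci. At least 4-fold differences in mock libraries were seen toward root at 20 of the 162 (12.3%) and toward shoot at 9 (5.56%), against 11.9% and 7.08% of all tested loci. The median ratio was 0.23 on the log2 scale. A shoot mean below 10 normalized counts was seen at 10 of the 162 (6.17%, against 11.2% of all tested loci). At 91 of the 162 the mean was higher in shoot than in root (56.2%, against 43.4% of all tested loci), and low values in PA root favour this. Shoot markers took 0.11, 0.202 and 0.174% of reads in PA root replicates 1, 2 and 3, against 0.106, 0.139 and 0.125% in mock root replicates 1, 2 and 3. Their share was thus highest in PA root replicates 2 and 3, and 0 of the 101 shoot markers that were tested in root were called, where 1.58% of all tested loci were, so this count is near the background. Their part in the other calls was not tested.

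**Figure D5:**
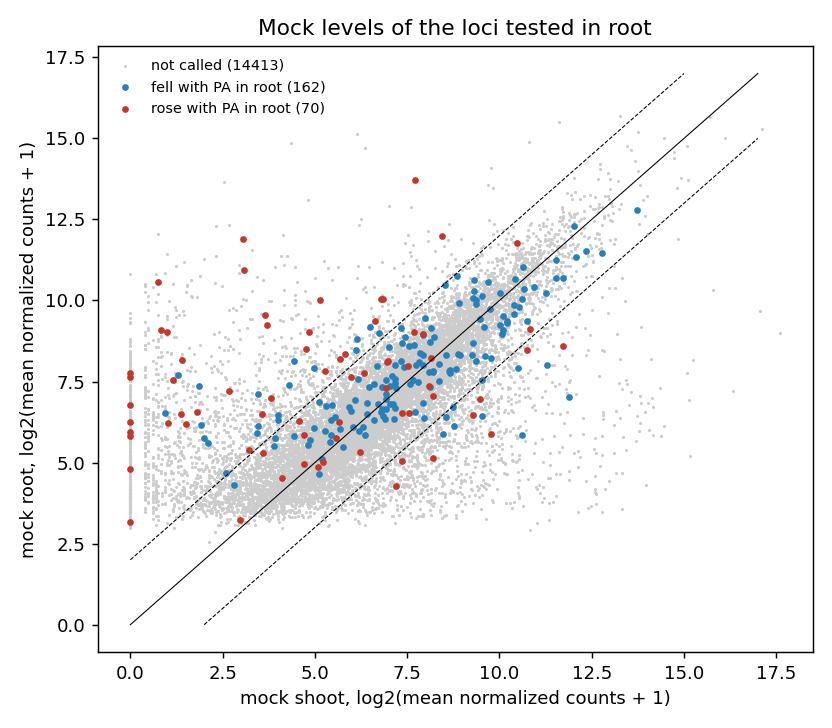
Level of each locus tested in root, as log2(mean normalized counts + 1), in mock shoot (x axis) and mock root (y axis). The solid line marks equal levels and the dashed lines 4-fold differences. By means of log2 values, which can differ slightly from the plotted points, 36 of the 70 loci that rose with PA in root (red) were at least 4-fold higher in mock root. The same held for 20 of the 162 that fell (blue).

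The shoot libraries offered values from other samples of the same spray. Of the 70 loci that rose in root, 48 had a mean of at least 10 in both tissues, and 36 of these (75%) were estimated higher in PA shoot than in mock shoot, against 46.8% of all 13010 loci measured in both. Of the 152 such loci that fell in root, 49 (32.2%) were estimated higher in PA shoot. The median shoot log2 fold change was 0.11 for the first group, -0.16 for the second and -0.02 for all loci. These are counts of estimates, most of which did not pass a test.

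In a limma fit of all 12 libraries, 214 loci were called in shoot, which is 1.64% of those measured in both tissues. Among them were 7 of the 48 loci that rose in root, all higher in PA shoot, and 9 of the 152 that fell in root, 7 of them lower in PA shoot. These 16 loci are 8.00% of the 200 root calls measured in both tissues and 7.48% of the 214 shoot calls. The 70 loci that rose in root took 0.254, 0.263 and 0.249% of reads in PA shoot replicates 1, 2 and 3, against 0.218, 0.226 and 0.221% in mock shoot replicates 1, 2 and 3, and the groups did not overlap. This share is a sum, to which the 22 of the 70 with shoot means below 10 normalized counts add little. How often groups do not overlap in shoot was not counted. The 162 that fell took 1.34, 1.41 and 1.51% in PA shoot, against 1.40, 1.61 and 1.73% in mock shoot, and those groups overlapped. The sources used here do not say whether root and shoot samples of 1 number shared plants.

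A difference between the root and the shoot effect was itself tested in that fit, and passed at 49 of 13010 loci, or 0.377%. The root effect was the higher one at 12 of them (0.0922%) and the lower one at 37 (0.284%). Of these, 8 were called in root, 2 that rose and 6 that fell. This test contains the root effect by which the loci were called, so nothing is read from their share. Solyc02g086700.5 was 1 of the 2 that rose, with a root minus shoot effect of 2.45 ± 0.44 on the log2 scale (SE, limma adjusted p = 0.0246). The effect in shoot alone was -0.81 ± 0.31 (SE) and did not pass (limma adjusted p = 0.214). For Solyc10g050970.1 the difference was -2.26 ± 0.54 (SE) and did not pass (limma adjusted p = 0.0872). The 6 that fell had root effects of -1.42 to -0.51 and shoot effects of -0.01 to 0.99, and 2 of them were also called in shoot. Leaving out PA root replicate 1, 2 or 3 gave 74, 24 or 160 loci in this test, leaving out mock root replicate 2 gave 15, leaving out PA shoot replicate 1, 2 or 3 gave 24, 15 or 30, and leaving out mock shoot replicate 3 gave 85. A p that misses the threshold does not show that the effects of the other loci were alike in root and shoot.

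Some of the loci that rose lay side by side. Taking tested loci in the order of their identifiers, 14 of the 70 that rose, or 20.0%, had a next-door locus on either side that also rose, in 5 runs. Of all tested loci, 0.929% lay next to a locus that rose. The longest run held 4 loci on chromosome 8. Their summed level was 1616, 2016 and 1429 normalized counts in PA root replicates 1, 2 and 3, against 928, 871 and 899 in mock root replicates 1, 2 and 3, with log2 fold changes of 0.69 to 1.09. All 3 PA roots were above all mock roots. This held at each of the 70 loci that rose, so it was fixed in advance for the sums of any run of them.

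A run of 3 on chromosome 3 had sums of 3970, 4505 and 4551 in PA root, against 2524, 2126 and 1744 in mock root, with shoot means of 0 to 2.40. Another run of 3, on chromosome 10, had sums of 2471, 3514 and 2360 in PA root, against 1442, 1456 and 1372 in mock root. The remaining runs were 2 pairs on chromosome 1. Among loci that fell, 14 of 162 (8.64%) lay in 7 pairs and in no longer run, and 2.19% of all tested loci lay next to a locus that fell. Neighbours can be near-identical copies of 1 gene. The sources used here do not say how reads shared between such copies were counted, so neighbours cannot be taken as independent.

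The calls were otherwise spread over the genome. Each of the 12 chromosomes held loci that rose and loci that fell. The share called ran from 1.01% on chromosome 12 and 1.03% on chromosome 9 to 2.48% on chromosome 10 and 2.51% on chromosome 8. Loci that fell outnumbered those that rose on each chromosome, by 8 to 7 on chromosome 5 and by 14 to 2 on chromosome 6.

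Whole reads, recovered from the normalized values, gave a like number with edgeR and a larger one with DESeq2. The edgeR quasi-likelihood test called 226 loci (1.54%), 56 higher and 170 lower with PA, of which 210 were shared with limma. DESeq2 called 386 (2.64%), 122 higher and 264 lower, of which 214 were shared. All 3 tools called 54 of the 70 rises and 146 of the 162 falls.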

How the data were processed

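Messenger RNA of PA root, mock root, PA shoot and mock shoot (n = 3 each, pools of 4 plants) was measured with a 3′-end library kit from 2 µg of RNA, per the labels' protocols. The tools FastQC 0.11.8, STAR 2.6.1d, Trimmomatic 0.38 and DESeq2 are listed in the submitters' processing notes. The sources used here do not give the counter, build, annotation or any molecular identifiers. The deposited table holds a signal that the authors call normalized counts, for 34688 loci. Dividing each column by its smallest value above 0 gave whole numbers, within 0.01, for 100% of values, and these were used as whole reads, 4214169 to 7386030 per library.

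Groups and replicate numbers came from the sample titles. P-values reflect only the spread among these pools, since pools are not stated to come from separate batches of plants. Replicates of a root group differed by more than sampling noise (chi-square per degree of freedom of 4.07 to 6.82).

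PA root was tested against mock root with limma 3.58.1 (R 4.3.3) on log2(value + 1) with a trend of variance on level. The test was two-sided and adjusted by Benjamini-Hochberg over all loci in the fit, with a threshold of 0.05. Fold changes on this scale understate the change of low loci. Loci needed a mean of at least 10 over the 6 root libraries, and also over the 6 shoot libraries for the interaction, which used all 12. edgeR 4.0.16 and DESeq2 1.42.0 ran on whole reads. Named loci were the 2 of highest and the 2 of lowest fold change among called loci whose groups do not overlap and whose mean is 20 or more. Lists of pathway genes by product name could not be made, because the reference table (assembly SLM_r2.1) matched 0 identifiers. The loci, the comparison and the classes were chosen with earlier results of these data known. The fits were also run on simulated independent counts in which no library stood apart from its group. Those runs say nothing about the swings seen when 1 library is left out. Figures were drawn with matplotlib 3.10.9. Other pseudocounts, filters, scalings and designs, and leaving out each library, were tried as alternatives.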

Additional observations from a re-analysis of the deposited data

Results flagged for a closer look

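The PA effect of Solyc02g086700.5 passed the test for a difference between tissues, with a root minus shoot effect of 2.45 on the log2 scale (limma interaction, adjusted p = 0.0246). The locus was picked by its root effect, which this test contains. Its shoot effect alone, -0.81, did not pass (limma adjusted p = 0.214). The values were higher in 3 of 3 PA roots, a condition of its choice, and lower in 3 of 3 PA shoots than in any mock library of the same tissue. In all, 8 loci called in root also passed this test, as did 49 of all 13010 loci in it (0.377%). The test contains the root effect by which the 8 were called, so nothing is read from their share. The differences of these 8 loci were 0.58 and 2.45 for the 2 that rose and ran from -1.98 to -1.08 for the 6 that fell.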

How the results depend on the processing

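The 4 named loci kept their direction in each alternative that held them. They were picked with groups that do not overlap, so leaving out 1 library could not turn their direction. The filter of 50 left out Solyc12g010670.1 and Solyc02g064980.1, and 56 of 70 values for the 4 loci also kept an adjusted p below 0.05. The other 14 all came from leaving out 1 library, and over all alternatives the adjusted p ran from 0.00114 to 0.116 for Solyc12g010670.1, 2.41e-05 to 0.0868 for Solyc02g086700.5, 9.37e-05 to 0.104 for Solyc10g050970.1 and 1.1e-06 to 0.104 for Solyc02g064980.1. The count of 232 root calls was 386 with DESeq2 (122 rose, 264 fell), 441 with a replicate block (140 rose, 301 fell) and 402 with sample quality weights (129 rose, 273 fell). A filter of 50 left 107 loci that fell. A single fit of all 12 libraries gave 182 root calls (38 rose, 144 fell), and only 141 of the 232 were among them. Leaving out 1 library gave 14 to 517 calls, 5 to 137 that rose and 6 to 380 that fell. The cause was not tested. The 49 loci of the interaction were 75 with edgeR, 169 with DESeq2, 110 with a replicate block and 15 to 160 with 1 library left out. Deviations of same-numbered PA and mock roots from their group means had correlations across loci of 0.11, -0.07 and 0.07. For roots of unlike number they ran from -0.18 to 0.12, and the main fit did not take the numbers as pairs. On the second principal component of the 6 root libraries (18.3% of the variance), replicate 1 lay at 17.5 in mock root and 18.5 in PA root. The other root libraries lay from -19.0 to -3.27 on it. Whether same-numbered roots shared a batch was not tested. Without the loci that mark shoot tissue, an alternative chosen after seeing the data, 269 root calls were made, which held all 232. Of the 101 loci taken out, 0 had been called, so the 232 were all but bound to stay. The part of shoot material in the calls was not tested. Other pseudocounts, no filter, quantile and trimmed-mean scaling and edgeR gave 226 to 264 root calls. With 3 samples a group, the median standard error was 0.29 below 30 normalized counts, and 0.205% of loci were called there. The part of depth in this was not tested.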
